A study of Mus musculus with 24 samples.

Results

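Deletion of Sox17 from the endothelium of grown mice was compared with wild type in the 6 adult libraries, 3 labelled KO and 3 labelled wt, of a series of 24 RNA-seq libraries of freshly isolated brain endothelial cells. The adult libraries were those whose labels give that stage. The other 18 libraries come from E15.5 embryos and from P5 or P9 pups, with 3 wt and 3 KO libraries at each stage. For both genotypes, tamoxifen was given as 2 injections of 1 mg for E15.5 and at 100 ug for P5 and P9. All adult mice carried floxed Sox17 alleles (Sox17flox/flox) and all received tamoxifen at 6 weeks of age, as 4 intraperitoneal injections of 1.5 mg given every other day, with harvest 1 week later. The KO mice carried the Cdh5(PAC)-Cre-ERT2 transgene, which produces a tamoxifen-activated recombinase under the endothelial VE-cadherin promoter, and the wt mice lacked it. The groups therefore differ in the presence of the recombinase as well as in Sox17, and effects of the recombinase itself cannot be told apart from loss of the gene. The labels describe the libraries of a group as independent biological replicates and do not say how many animals went into each.

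Sox17 is a transcription factor of the SoxF group, together with Sox7 and Sox18, and binds DNA through an HMG box. In blood vessels it is best known in arterial endothelium, where it acts together with the Notch pathway, in which the ligand Dll4 and the receptors Notch1 and Notch4 are endothelial members. In the brain, endothelial cells form the blood-brain barrier, whose tight junctions and selective carriers depend on Wnt signalling through beta-catenin, and Sox17 has been placed among the genes that respond to it.

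The adult libraries held 12534910 to 16682814 counts on 45468 annotated genes, and 20438 to 21422 genes had at least 1 count in each. Brain endothelial markers were high and alike in both groups. Their sum over 15 genes was 18614 to 20324 counts per 1000000 (CPM, scaled by library composition) in wt and 18008 to 20060 CPM in KO. The cells were not endothelium alone. Oligodendrocyte markers summed to 25404 to 30638 CPM in wt and 20457 to 30206 CPM in KO, and choroid plexus and ependymal markers to 5656 to 6488 CPM and 4779 to 8199 CPM. Over 14 lists of cell type markers, no gene passed the threshold between the adult groups in the fit of all 24 libraries. In the edgeR fit of the 6 adult libraries alone, Hba-a1 (adjusted p = 0.017) and Hba-a2 (0.021) passed, lower in KO. With no filter on low counts, Hba-a1, Hba-a2, Hbb-bt and Synpo2 passed lower and Pdgfra, Nrgn, Aplnr and Ackr2 higher. All 16 oligodendrocyte markers lay below 0 (median log2 fold change -0.12), beside 47.8% of all genes tested. In 4 of 7 red cell genes (57.1%) every KO library was below every wt library, beside 5.79% of all genes tested. The summed levels of red cell markers (1284 to 1485 CPM in wt, 917 to 1054 CPM in KO) and of smooth muscle markers (546 to 568 CPM in wt, 511 to 539 CPM in KO) did not overlap between the groups (exact two-sided permutation test of each sum, p = 0.1, the smallest p that 3 libraries against 3 allow). The smooth muscle gap lay in Synpo2, which averaged 99.5 CPM in wt and 62.8 CPM in KO (adjusted p = 0.81). Without Synpo2, left out after its values were seen, the sums overlapped, at 455 to 462 CPM in wt and 436 to 474 CPM in KO. The part of other cells in the differences below was not tested, and in bulk RNA fewer cells of a type and less RNA per cell cannot be told apart.

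Sox17 itself was measured in every library first. It stood at 318, 298 and 274 CPM in the wt libraries and at 57.3, 22.5 and 78.2 CPM in the KO libraries. All 3 KO libraries lay far below all 3 wt libraries, with KO library 2 lowest and KO library 3 highest among the KO, and the KO mean was 17.8% of the wt mean (log2 fold change -2.50 ± 0.26 SE, adjusted p = 8.6e-06; exact permutation p = 0.1). The counts cover the whole gene (chromosome 1, 4490931 to 4497354, minus strand, mm10), and which exons are floxed is not given in the sources used here, so transcripts of a recombined allele would still be counted where they remain. The adult fall was smaller than that at P9, where the log2 fold change was -3.83 (adult minus P9 1.33, adjusted p = 0.013). The difference did not pass against P5 (1.56, adjusted p = 0.20) or E15.5 (0.82, adjusted p = 1.0).

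Of 17159 genes tested, 15 passed an adjusted p of 0.05 in adults (edgeR quasi-likelihood test with Benjamini-Hochberg adjustment, fitted on all 24 libraries), which is 0.0874% of them. 5 genes rose in KO (0.0291%), Rp1, Esr1, Upk1a, Fam196a and Ptgs2. 10 genes fell (0.0583%), Sox17, Gkn3, Alox12, Zap70, Dll4, Gstm7, Notch4, Prom1, Lrrc49 and Mecom. In all 15 the 3 KO libraries lay to one side of the 3 wt libraries, a separation that 10.9% of all genes tested showed in either direction. At an unadjusted p under 0.05, 337 genes were higher (1.96%) and 267 lower (1.56%), together 3.52% of those tested.

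**Figure D1:**
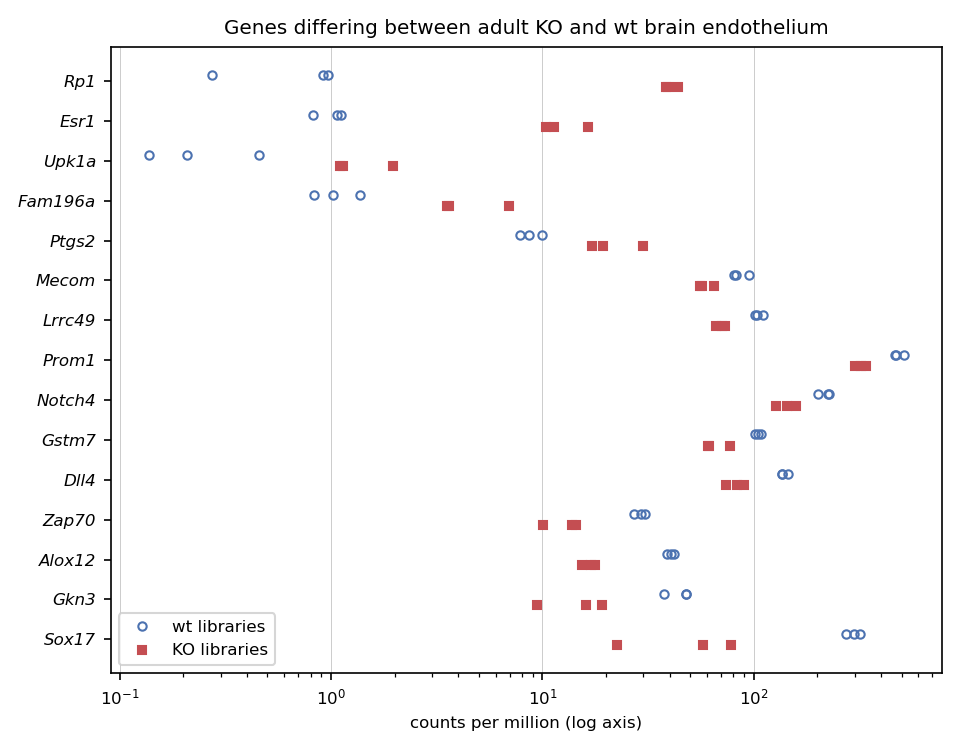
Scaled CPM on a log axis for the 15 genes past the threshold, 1 open circle for each adult wt library and 1 filled square for each adult KO library. Within every gene the circles and squares do not overlap, from Rp1, with KO libraries between 38.5 and 43.9, down to Sox17, with KO libraries between 22.5 and 78.2.

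The called falls included 4 of the 32 tested members of an arterial gene list, Sox17, Gkn3, Dll4 and Mecom, beside 0.0583% of all genes tested. Sox17 is the deleted gene itself. No member was called higher, beside 0.0291% of all genes tested. Dll4, the Notch ligand of arterial and tip endothelium (chromosome 2, 119325784 to 119335962, plus strand), stood at 145, 136 and 136 CPM in wt and at 73.8, 90.3 and 83.4 CPM in KO. Every KO library was lower than every wt library, and the KO mean was 59.5% of the wt mean (log2 fold change -0.75 ± 0.13 SE, adjusted p = 0.011). The call for Dll4 was lost without wt library 1, 2 or 3 or without KO library 1 (adjusted p 0.05 to 0.12).

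Notch4, an endothelial Notch receptor (chromosome 17, 34564268 to 34588503, plus strand), gave 228, 200 and 224 CPM in wt and 143, 159 and 127 CPM in KO. The groups did not overlap, and the KO mean was 65.8% of the wt mean (log2 fold change -0.60 ± 0.11 SE, adjusted p = 0.030). The call for Notch4 held only when KO library 2 was the one left out, and the adjusted p was 0.064 to 0.23 without any one of the other 5 libraries.

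Gkn3, a gastrokine of the stomach lining that also marks arterial endothelium in mouse brain (chromosome 6, 87383268 to 87388935, minus strand), gave 47.8, 47.7 and 37.7 CPM in wt and 19.1, 9.45 and 16 CPM in KO. Every KO library was lower than every wt library, and the KO mean was 33.4% of the wt mean (log2 fold change -1.58 ± 0.29 SE, adjusted p = 0.025). Its call was kept without KO library 1 and lost without any other single library (adjusted p 0.058 to 0.31) and with limma-trend (adjusted p = 0.48).

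Mecom, a zinc-finger transcription factor gene (chromosome 3, 29951296 to 30548008, minus strand), gave 95.3, 82.6 and 80.4 CPM in wt and 55.5, 57.0 and 65.1 CPM in KO. The KO libraries were all lower, at 68.8% of the wt mean (log2 fold change -0.54 ± 0.11 SE, adjusted p = 0.039). Leaving out any one library other than KO library 3 ended the call (adjusted p 0.071 to 0.37).

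The rest of the arterial list lay mostly below 0 without passing. Counting Sox17, 24 of 32 members had a log2 fold change below 0, with a median of -0.22, beside 47.8% below 0 and a median of 0.01 over all genes tested. Leaving Sox17 out, 13 of the 31 other members (41.9%) had all KO libraries below all wt libraries, beside 5.79% of all genes tested, and 3 had them all above, beside 5.09%. The median stayed between -0.26 and -0.17 when each adult library was left out in turn. The summed smooth muscle markers had a log2 ratio of -0.10, and of -0.001 without Synpo2, a gene left out after its values were seen. Of 14 tested smooth muscle markers 10 lay below 0 (71.4%, beside 47.8% of all genes tested), with a median of -0.07. None of them passed the threshold in the fit of all 24 libraries. Their part in the arterial values was not tested.

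Among the members that did not pass, the arterial connexin gene Gja5 gave 5.93, 5.27 and 5.41 CPM in wt and 2.37, 2.08 and 3.45 CPM in KO. Its groups did not overlap, but at these low counts the log2 fold change of -1.08 ± 0.36 SE had an adjusted p of 0.93. Sema3g, a secreted semaphorin of arterial endothelium, gave 226, 222 and 246 CPM against 163, 139 and 152 CPM (log2 fold change -0.61, adjusted p = 0.44). Hey1, a Notch target gene, gave 52.0, 61.9 and 55.9 CPM against 35.0, 47.1 and 37.0 CPM (log2 fold change -0.51, adjusted p = 1.0). Other arterial genes differed little or went the other way. The ephrin ligand gene Efnb2 had a log2 fold change of 0.02 (95% interval -0.40 to 0.45), Bmx, a kinase gene of arterial endothelium, had -0.02 (-0.46 to 0.42), and the elastin gene Eln was higher in every KO library (log2 fold change 0.73, adjusted p = 0.90). In the edgeR fit of the 6 adult libraries alone Sema3g passed (adjusted p = 0.0089). In the edgeR fit with no filter on low counts, Sema3g (adjusted p = 0.00042), Gja5 (0.012) and, higher in KO, Eln (8.4e-06) passed. That setting called 69 genes in adults instead of 15, and the log2 fold change of Gja5 was nearly the same, at -1.09.

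Of 30 tested genes of the Notch pathway, Dll4 and Notch4 were called lower, beside 0.0583% of all genes tested. None was called higher, beside 0.0291% of all genes tested. 13 of the 30 lay below 0, and the median was 0.03. The interval of the difference lay within a 2-fold change in either direction for 28 of them (93.3%), beside 75.8% of all genes tested. The receptor Notch1 had a log2 fold change of -0.04 (95% interval -0.30 to 0.23), the ligand Jag1 -0.11 (-0.33 to 0.11), and the transcription factor Rbpj, through which Notch receptors act, 0.02 (-0.22 to 0.26). On a per-length scale, transcripts per 1000000 (TPM) from the authors' column, Notch4 and Notch1 had like levels in wt (93.5 and 89.7 TPM), and in KO Notch4 was at 63.4 TPM and Notch1 at 90.1 TPM.

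Dll4, Notch4 and Gkn3 are shown here with the bases before their transcription starts because they are arterial or Notch genes that fell with Sox17, and Zap70 because its fall passed the threshold whichever library was left out. The windows are from RefSeq, build GRCm38.p6, and are written 5′ to 3′ on the strand of the gene: Dll4 chr2:119325534-119325783 (plus), Notch4 chr17:34564045-34564267 (plus, 223 bases, ending at the gene start of the tables), Gkn3 chr6:87388936-87389185 (minus) and Zap70 chr1:36761548-36761797 (plus). Capitals mark the SOX core letters ACAAT or their reverse complement ATTGT.
Dll4: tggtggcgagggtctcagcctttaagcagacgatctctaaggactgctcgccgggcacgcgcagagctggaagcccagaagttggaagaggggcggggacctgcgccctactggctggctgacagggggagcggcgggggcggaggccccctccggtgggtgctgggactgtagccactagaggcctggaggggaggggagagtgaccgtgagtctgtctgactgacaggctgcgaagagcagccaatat
Notch4: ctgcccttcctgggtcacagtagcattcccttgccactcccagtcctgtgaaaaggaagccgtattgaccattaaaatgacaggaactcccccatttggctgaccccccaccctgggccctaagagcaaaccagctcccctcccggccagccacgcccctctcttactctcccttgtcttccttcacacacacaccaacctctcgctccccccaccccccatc
Gkn3: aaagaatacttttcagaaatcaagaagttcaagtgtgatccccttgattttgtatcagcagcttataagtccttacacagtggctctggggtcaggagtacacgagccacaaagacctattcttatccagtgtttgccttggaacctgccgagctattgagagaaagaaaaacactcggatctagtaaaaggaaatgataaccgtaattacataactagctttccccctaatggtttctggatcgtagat
Zap70: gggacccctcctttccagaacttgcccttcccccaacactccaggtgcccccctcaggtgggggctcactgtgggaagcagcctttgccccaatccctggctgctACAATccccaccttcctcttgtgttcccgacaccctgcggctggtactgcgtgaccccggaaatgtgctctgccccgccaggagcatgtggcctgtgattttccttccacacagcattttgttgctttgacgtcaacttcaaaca
The letters occur once before Zap70 and not in the windows of Dll4, Notch4 and Gkn3. Of the 10 genes that fell, 7 had a RefSeq start within 50 bases of the gene start in the tables, and 3 of those windows (Zap70, Gstm7 and Lrrc49) held the letters. Over all 32851 RefSeq promoter windows of 250 bases, 27.7% held them. A match describes letters in a window and is not a binding site.

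Zap70 had the smallest adjusted p among the falling genes after Sox17. It encodes a tyrosine kinase known for signalling from the T cell receptor (chromosome 1, 36761798 to 36782818, plus strand). It gave 30.5, 29.4 and 27.3 CPM in wt and 13.9, 14.5 and 10.1 CPM in KO. The groups were well apart, with a KO mean at 44.1% of the wt mean (log2 fold change -1.18 ± 0.13 SE, adjusted p = 3.8e-05). T cell genes were near 0 in the same libraries. Cd3e had 6 counts, Cd3g 2 and Cd8a 2 over all 6 adult libraries together, and Lck, the kinase acting before Zap70 in T cells, had 5 to 7 counts in each wt library and 6 to 18 in each KO library.

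Prom1, which encodes the membrane glycoprotein prominin-1 (CD133; chromosome 5, 43993620 to 44102032, minus strand), fell in every KO library. It gave 515, 469 and 464 CPM in wt and 302, 322 and 340 CPM in KO. The KO mean was 66.5% of the wt mean with no overlap (log2 fold change -0.59 ± 0.10 SE, adjusted p = 0.011). An antisense transcript at the same locus, Gm16401, averaged 2.47 CPM in wt and 0.865 CPM in KO (log2 fold change -1.52, adjusted p = 0.15). The call for Prom1 was lost without wt library 1 or 2 or KO library 1 or 2 (adjusted p 0.056 to 0.11).

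Lrrc49, a leucine-rich repeat gene (chromosome 9, 60568859 to 60688158, minus strand), gave 110, 104 and 101 CPM in wt and 71.0, 66.3 and 73.1 CPM in KO. The KO libraries lay close together and below the wt, at 66.8% of the wt mean (log2 fold change -0.58 ± 0.10 SE, adjusted p = 0.011). The same libraries as for Prom1, left out singly, ended the call (adjusted p 0.06 to 0.12).

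Gstm7, a glutathione transferase (chromosome 3, 107926334 to 107931817, minus strand), gave 108, 102 and 105 CPM in wt and 60.9, 61.4 and 77.1 CPM in KO. KO library 3 was the highest of the KO and still below each wt library, and the log2 fold change was -0.66 ± 0.13 SE (adjusted p = 0.035). The gene belongs to a family of near copies among which reads can be divided. The 5 other tested Gstm genes had log2 fold changes of -0.26 (Gstm1) to -0.05 (Gstm5 and Gstm6), none past the threshold. The call was lost without any one library except KO library 3 (adjusted p 0.12 to 0.33).

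Alox12, the platelet-type arachidonate 12-lipoxygenase (chromosome 11, 70241457 to 70255353, minus strand), gave 41.8, 38.8 and 40.5 CPM in wt and 17, 15.4 and 17.7 CPM in KO. Its replicates were tight and the groups far apart, with a KO mean at 41.5% of the wt mean (log2 fold change -1.27 ± 0.21 SE, adjusted p = 0.011). Summed platelet markers were 42.9 to 49.9 CPM in wt and 39.6 to 103 CPM in KO. Without Nrgn, which is also abundant in neurons, they were 24.3 to 28.0 CPM and 26.4 to 30.2 CPM, and their part in the value of Alox12 was not tested. Without any one library other than KO library 3, the adjusted p of Alox12 was 0.055 to 0.12.

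Ptgs2, which encodes the inducible cyclooxygenase COX-2 (chromosome 1, 150100031 to 150108227, plus strand), rose. It gave 8.66, 7.81 and 9.92 CPM in wt and 19.5, 17.1 and 30.0 CPM in KO. Every KO library exceeded every wt library, and the KO mean was 2.52-fold the wt mean (log2 fold change 1.33 ± 0.23 SE, adjusted p = 0.012). The call was lost without wt library 1, 2 or 3 or KO library 3 (adjusted p 0.05 to 0.13), and with limma-trend (adjusted p = 0.13).

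The largest rises were at Rp1 and Esr1. Rp1, a photoreceptor microtubule gene, lies beside Sox17 (chromosome 1, 4290846 to 4409241, same strand), and it went from 0.912, 0.274 and 0.971 CPM in wt to 38.5, 43.9 and 39.4 CPM in KO (log2 fold change 5.82 ± 0.27 SE, adjusted p = 2.5e-12). Esr1, the estrogen receptor alpha gene (chromosome 10, 4611593 to 5005614, plus strand), went from 1.06, 0.822 and 1.11 CPM to 11.4, 16.4 and 10.4 CPM (log2 fold change 3.66 ± 0.32 SE, adjusted p = 5.5e-07). The Cre-ERT2 transgene carries an altered estrogen receptor domain, and whether its reads were counted at Esr1 was not tested. Among the other tested neighbours of Sox17, the unnamed transcript Gm37323 averaged 0.0482 CPM in wt and 0.785 CPM in KO (adjusted p = 0.15). These values rest on 2 counts in the wt libraries together and 36 in the KO libraries, and the transcript passed with limma-trend (adjusted p = 0.019). Mrpl15, Lypla1, Tcea1, Rgs20 and Atp6v1h had log2 fold changes from -0.27 (Mrpl15) to 0.34 (Rgs20), none past the threshold.

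Both remaining rises were at low counts. Upk1a, a uroplakin known from the urothelium (chromosome 7, 30603092 to 30612734, minus strand), gave 0.456, 0.137 and 0.208 CPM in wt and 1.96, 1.14 and 1.10 CPM in KO, from 11 counts in the 3 wt libraries together and 65 in the 3 KO libraries (log2 fold change 2.40 ± 0.43 SE, adjusted p = 0.021). Fam196a (chromosome 7, 134881926 to 134938430, minus strand) gave 1.37, 1.03 and 0.833 CPM in wt and 3.52, 6.97 and 3.61 CPM in KO (log2 fold change 2.13 ± 0.39 SE, adjusted p = 0.021). It was highest in KO library 2, and it lies within Dock1 on the opposite strand, which had a log2 fold change of -0.13 (adjusted p = 1.0). Upk1a lost its call without wt library 2 or 3 or KO library 1 (adjusted p 0.18 to 0.22), and in the 6 adult libraries alone (adjusted p = 0.14). Fam196a lost its call without any wt library or without KO library 2 (adjusted p 0.088 to 0.29).

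**Figure D2:**
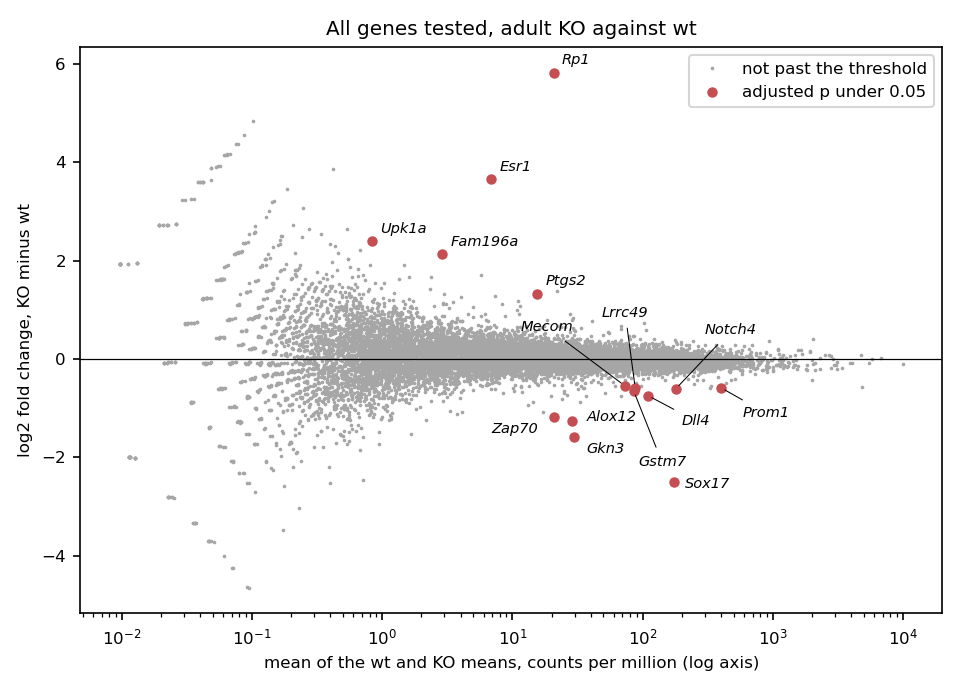
Log2 fold change (KO minus wt, adults) of all 17159 genes tested against their mean level in scaled CPM on a log axis, with the 15 genes past the threshold in red and named. The red points run from 5.82 for Rp1 to -2.50 for Sox17, and the other 9 falls lie between -1.58 and -0.54.

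Only Rp1, Esr1, Sox17 and Zap70 kept their calls when each adult library was left out in turn and under the other tests, filters and scalings tried. In a test against a 2-fold change, Rp1, Esr1 and Sox17 passed and Zap70 did not. With the 6 adult libraries fitted alone 40 genes passed (10 higher, 30 lower), and with DESeq2 36 (10 higher, 26 lower). Both of these settings added the same 13 genes, 11 of them lower in KO, with adjusted p from 0.058 to 0.29 in the joint fit. Spns2, the sphingosine-1-phosphate exporter, was nearest to it and gave 303, 298 and 295 CPM in wt and 215, 224 and 230 CPM in KO (log2 fold change -0.42, adjusted p = 0.058). The lymphatic growth factor Vegfc gave 33.6, 29.2 and 29.1 CPM and 18.3, 20.2 and 18.7 CPM (-0.68, adjusted p = 0.13). Both were separated between the groups in every library.

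Among the others of the 13, the endothelin Edn3 averaged 85.8 CPM in wt and 51.0 CPM in KO (adjusted p = 0.15), the cationic amino acid transporter Slc7a1 397 and 263 CPM (adjusted p = 0.20), and the proteoglycan Spock2 5837 and 3905 CPM (adjusted p = 0.29). Igfbp3, a growth factor binding protein, averaged 30.7 and 13.5 CPM (adjusted p = 0.15). The 2 that were higher in KO were Plscr2, a scramblase family gene (19.1 and 36.1 CPM, adjusted p = 0.21), and Ccdc184 (7.38 and 15.6 CPM, adjusted p = 0.22). These 13 were singled out after their values were seen.

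The venous list showed no call among 23 tested members, and 15 of them lay above 0 with a median of 0.34. 5 members (21.7%) had all KO libraries above all wt libraries, beside 5.09% of all genes tested. Several of the largest differences came from KO library 3. Selp, the leukocyte adhesion receptor P-selectin, gave 0.836, 0.205 and 0.763 CPM in wt and 0.231, 1.07 and 5.72 CPM in KO, and Ch25h, cholesterol 25-hydroxylase, gave 1.14, 1.03 and 1.18 CPM in wt and 0.981, 1.41 and 8.47 CPM in KO. Without KO library 3 the median was 0.14, and with only members whose mean count reached 50 in some group it was 0.17.

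Other venous members did not rest on that library alone. Aplnr, the apelin receptor, gave 23.1, 16.6 and 15.6 CPM in wt and 27.3, 32.4 and 26.9 CPM in KO (log2 fold change 0.65, adjusted p = 0.29). The groups did not overlap. Nr2f2, the transcription factor of venous identity, had a log2 fold change of -0.05 (95% interval -0.38 to 0.29), and Ephb4, the venous receptor of ephrin-B2, had 0.07 (-0.23 to 0.37). In the inflammatory and adhesion list, Ptgs2 rose and Alox12 fell among 35 members, beside 0.0291% called higher and 0.0583% called lower of all genes tested. The list median was 0.16. Vcam1 and Icam1, adhesion receptors for leukocytes that are also on the venous list, were highest in KO library 3 (152 CPM and 102 CPM). Their wt libraries were at 72.3 to 87.1 CPM and 45.1 to 57.7 CPM. Summed leukocyte markers other than microglia were 22.6 to 29.8 CPM in wt and 28.1 to 44.4 CPM in KO, overlapping and highest in KO library 1. Their part in these values was not tested.

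**Figure D3:**
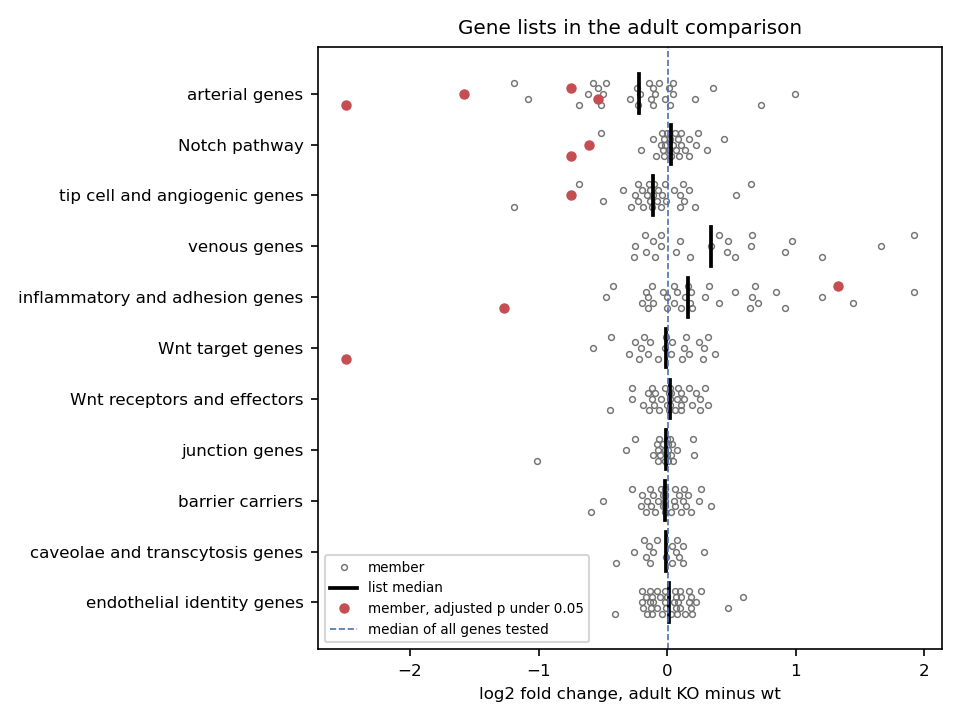
Log2 fold change (adult KO minus wt) of the tested members of 11 gene lists, 1 point per gene, with genes past the threshold in red, each list's median as a black bar and the median of all genes tested as a dashed line. The arterial median is -0.22 and the venous median 0.34, and the barrier and identity lists centre near 0.

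The adult libraries showed no called change in the barrier lists. None of 24 junction genes passed, and their median was -0.01. In 3 of them (12.5%) every KO library was below every wt library, beside 5.79% of all genes tested. In 1 (4.17%) every KO library was above every wt library, beside 5.09% of all genes tested. Cldn5, the main tight junction claudin of brain endothelium, gave 3909, 4257 and 3821 CPM in wt and 4076, 3838 and 3423 CPM in KO. The groups overlapped, and the log2 fold change was -0.08 (95% interval -0.35 to 0.19). Ocln, occludin, had 0.21 (-0.09 to 0.51). Cldn3 was lower in every KO library but scarce, from 1.75 to 2.94 CPM in wt and 1.02 to 1.33 CPM in KO (log2 fold change -1.01, adjusted p = 0.47).

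None of 34 carrier genes passed, their median was -0.02, and the 95% interval of all 34 lay within a 2-fold change, beside 75.8% of all genes tested. 6 of them (17.6%) had every KO library below every wt library, beside 5.79% of all genes tested, and 2 (5.88%) had them above. The glucose carrier Slc2a1 gave 2091, 1993 and 1965 CPM in wt and 1911, 2316 and 1693 CPM in KO. The KO libraries lay on both sides of the wt (log2 fold change -0.03, 95% interval -0.28 to 0.22). Mfsd2a, the lipid transporter that restrains transcytosis, had -0.14 (-0.43 to 0.14), and Slc7a1 was the lowest of the list at -0.59. Among 17 genes of caveolae and transcytosis none passed, and the median was -0.01. In 3 (17.6%) every KO library was lower and in none higher, beside 5.79% and 5.09% of all genes tested. Plvap, the diaphragm protein of leaky vessels, varied as much within as between groups, with 28.5, 11.8 and 12.4 CPM in wt and 25.7, 9.72 and 19.7 CPM in KO (0.07, -0.58 to 0.73).

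Of 24 Wnt target genes, Sox17, the deleted gene, fell and no other passed, beside 0.0583% called lower and 0.0291% called higher of all genes tested. The list median was -0.01. Leaving Sox17 out, 5 of 23 (21.7%) had every KO library below every wt library, beside 5.79% of all genes tested, and 1 had them above. Lef1, a Wnt effector and target, gave 150, 148 and 135 CPM in wt and 119, 133 and 111 CPM in KO. Its groups did not overlap, by a small margin, and the log2 fold change was -0.25 (95% interval -0.53 to 0.03). Axin2, the feedback inhibitor of the pathway, had -0.02 (-0.32 to 0.28). Apcdd1, a Wnt inhibitor gene of the brain endothelium, was the highest of the list (log2 fold change 0.37, adjusted p = 1.0). None of 34 Wnt receptor and effector genes passed, with a median of 0.02. In 3 (8.82%) every KO library was lower and in 1 (2.94%) higher, beside 5.79% and 5.09% of all genes tested.

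Endothelial identity genes gave no call among 40, with a median of 0.01. In 6 (15%) every KO library was lower and in 3 (7.5%) higher, beside 5.79% and 5.09% of all genes tested. Cdh5 had a log2 fold change of 0.03 (95% interval -0.18 to 0.23) and Pecam1 -0.01 (-0.23 to 0.20). The lowest of the list was Ecscr (-0.40) and the highest Clec14a (0.59, 0.28 to 0.90, adjusted p = 0.31). Clec14a averaged 85.3 CPM in wt and 128 CPM in KO without overlap, and it passed in the edgeR fit with no filter on low counts (adjusted p = 0.0015). Of the other SoxF genes, Sox7 was higher in every KO library, from 67.8, 69.9 and 59.2 CPM to 98.9, 98.8 and 76.2 CPM (log2 fold change 0.48 ± 0.11 SE, adjusted p = 0.20), and Sox18 overlapped (0.26, -0.20 to 0.72). Sox7 did pass with the DESeq2 test (adjusted p = 0.041) and in the edgeR fit without KO library 3 (adjusted p = 0.047). Per length, the wt levels were 790 TPM for Sox18, 216 TPM for Sox17 and 69.1 TPM for Sox7, and the KO levels 976, 39.4 and 98.9 TPM.

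**Figure D4:**
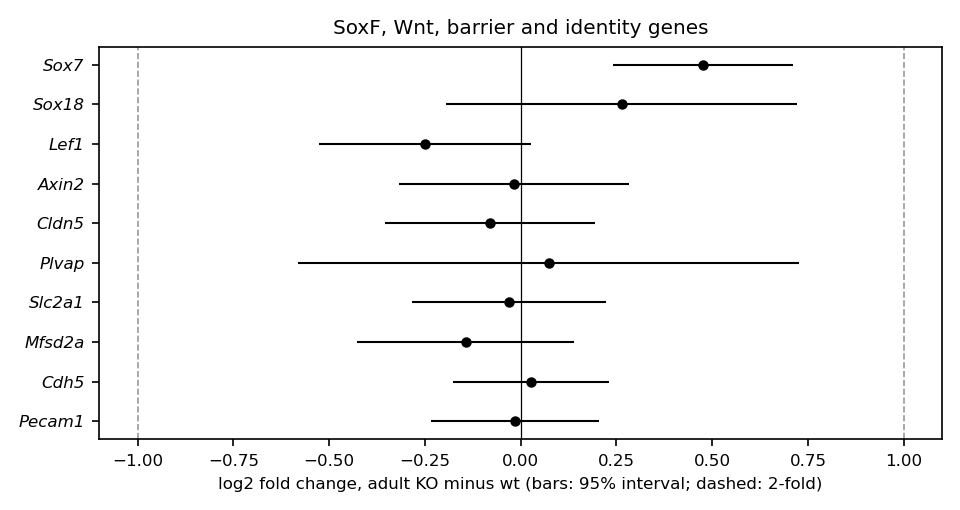
Log2 fold change (adult KO minus wt) of 10 SoxF, Wnt, barrier and identity genes with their 95% intervals as bars, and a 2-fold change in each direction as dashed lines. Every interval lies inside the dashed lines, and that of Sox7, from 0.24 to 0.71, lies above 0.

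The remaining lists held few calls. Of 33 tip cell and angiogenic genes Dll4 alone was called lower and none was called higher, beside 0.0583% and 0.0291% of all genes tested. In this list 24 lay below 0 (72.7%, beside 47.8% of all genes tested), and the median was -0.11. Of 20 capillary genes none passed, and 6 (30%) had every KO library below every wt library, Spock2 among them, beside 5.79% of all genes tested. In 2 (10%) every KO library was above every wt library, beside 5.09% of all genes tested. The lists of guidance, TGF-beta and BMP, flow-responsive, haemostasis, interferon, MHC class I, p53, glucocorticoid, immediate early, heat shock, hypoxia, cell cycle, clock, cholesterol, matrix, mesenchymal transition and iron genes held no call in either direction. Their medians ran from -0.11 (heat shock) to 0.08 (cell cycle and immediate early genes).

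The adult genes were then set beside the earlier stages, where tamoxifen was given on other schedules and, at E15.5 and P5, cells were dissociated with another kit. Stage cannot be told apart from these. At E15.5 94 genes passed (0.548%), at P5 91 (0.53%) and at P9 4809 (28%), beside the 15 of adults. Of the adult 15, 4 were called in the same direction at E15.5 (26.7% of the adult genes and 4.26% of those of E15.5), 5 at P5 (33.3% and 5.49%) and 7 at P9 (46.7% and 0.146%). Rp1, Esr1 and Sox17 were called at all 4 stages.

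Gkn3 and Alox12 fell at several stages. The log2 fold change of Gkn3 was -3.63 at P5 (adjusted p = 2.6e-05) and -4.09 at P9 (adjusted p = 7.7e-07), and the adult fall was smaller than that of P9 (difference 2.51, adjusted p = 0.0057). Alox12 had -1.41 at E15.5 and -2.72 at P9, and its adult fall was again smaller than that of P9 (1.45, adjusted p = 0.0044). Ptgs2 rose by 4.70 at P9 against 1.33 in adults (adult minus P9 -3.37, adjusted p = 2.4e-07).

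The adult falls of Dll4 and Prom1 were rises at P9. Dll4 had 0.48 at P9 (adjusted p = 0.0048) and Prom1 0.52 (adjusted p = 0.00035), and the adult effect was lower than that of P9 by 1.24 for Dll4 (adjusted p = 3.4e-05) and by 1.11 for Prom1 (adjusted p = 7.2e-06). Against P5 the difference for Dll4 was -0.72 (adjusted p = 0.28) and against E15.5 -0.56 (adjusted p = 0.59). Notch4 was lower in KO at E15.5 (-0.33) and P5 (-0.40) without passing, and the adult effect differed from P9 (-0.89, adjusted p = 0.00045) but not past the threshold from the other stages.

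Zap70 differed from each of the other stages. Its wt level was 7.43 CPM at E15.5, 38.1 CPM at P5 and 47.8 CPM at P9, and its log2 fold changes there were 0.13, -0.02 and 0.33. The adult effect was lower than that of E15.5 by 1.30 on the log2 scale (adjusted p = 0.0029), than that of P5 by 1.16 (adjusted p = 0.013) and than that of P9 by 1.51 (adjusted p = 4.3e-06). Gstm7, Upk1a, Notch4, Mecom and Fam196a were likewise called at no other stage, but none of the 5 differed from all of them by this test.

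Across all genes tested, the adult effect differed from that of E15.5 for 27 genes (0.157%), from that of P5 for 6 (0.035%) and from that of P9 for 2269 (13.2%). The split for P9, 1153 higher (6.72%) and 1116 lower (6.5%) in adults, depends on the scaling and was 909 and 1376 with DESeq2 size factors. Against the mean of the 3 other stages, 153 genes differed (0.892%). The 10 with the smallest adjusted p, among genes whose mean count reached 50 in some group, were Zap70, Timp3, Igfbp3, Atp10a, Galnt15, Col18a1, Adamtsl2, Gcnt1, Acer2 and Ctgf. Apart from Zap70, none of them passed the threshold in adults, and all 9 passed at P9. The P9 effect is part of the mean by which they were picked, so their passing at P9 is not a separate result.

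**Figure D5:**
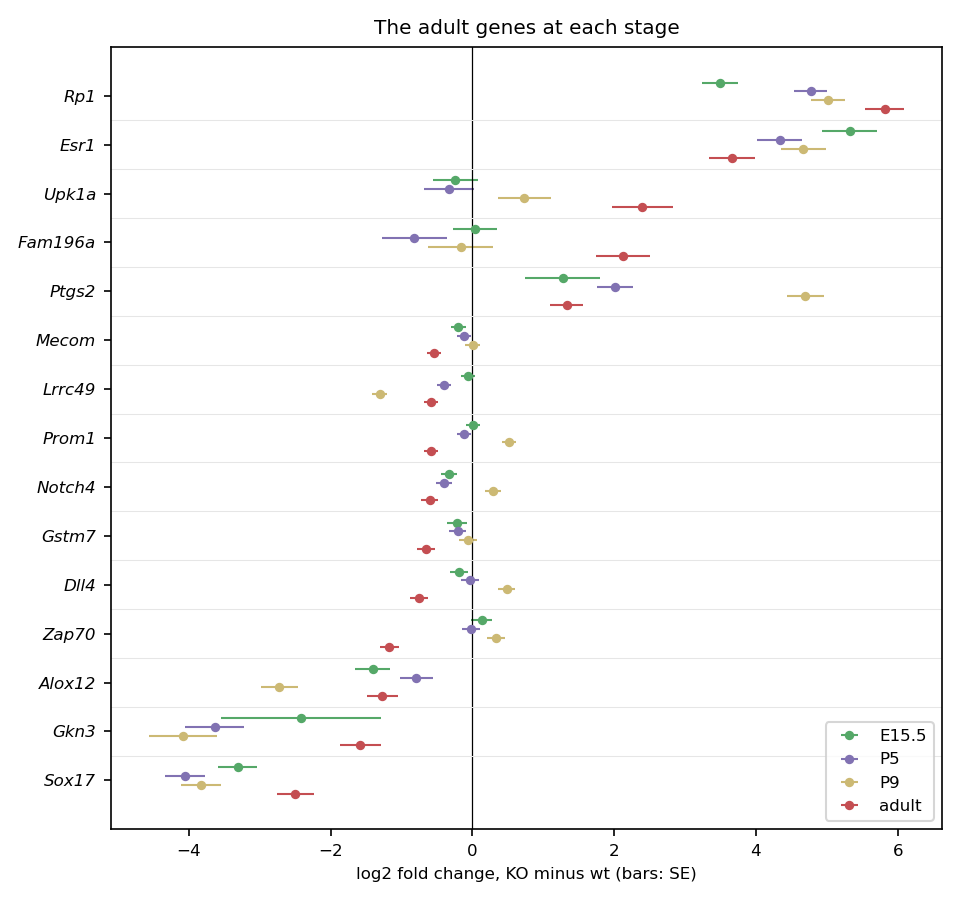
Log2 fold change (KO minus wt) with its SE as a bar at E15.5, P5, P9 and in adults for the 15 genes past the threshold in adults. Rp1, Esr1 and Sox17 lie far from 0 at every stage, and Zap70 lies between -0.02 and 0.33 at the earlier stages and at -1.18 in adults.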

How the data were processed

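Each library was deposited as a table of whole-number read counts on the gene's strand per gene, with FPKM and TPM columns computed by the authors from the same counts, per the file headers. Submitters' processing notes name Trim Galore 0.4.1, STAR 2.5.3a, SAMtools 1.5 and FastQC with mm10, and the annotation release is not given in the sources used here. Labels describe poly-A RNA of cells depleted of CD45 and selected with CD31 beads. Dividing the deposited counts by length and total returned the authors' FPKM in every row. FPKM was not used further.

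Counts of all 24 libraries entered 1 edgeR 4.0.16 fit (R 4.3.3; TMM scaling, quasi-likelihood F test, 1 mean per stage and genotype, 16 residual degrees of freedom), over the 17159 genes whose mean count reached 10 in any group. Adjusted p-values are Benjamini-Hochberg over all genes. A gene was called at an adjusted p under 0.05. P-values of this fit measure the spread between the 3 libraries of a group, pooled for each gene over all 8 groups and moderated across genes. CPM are scaled by TMM. A count of 3 is 0.18 to 0.239 CPM at these depths. Promoters are the 250 bases before RefSeq starts.

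Named were called genes whose wt and KO libraries did not overlap and whose mean count reached 50 in a group (15 a direction at most, by size of change), up to 4 called genes of each list, the 10 genes whose adult effect differed most clearly from the mean of the other stages, and 14 genes always shown. Called genes below that count, list members and the genes next to the threshold were named after their values were seen. The comparison, members and lists were chosen with earlier results of these data known. Alternatives were DESeq2 1.42.0 (test and size factors), limma 3.58.1, other filters, the replicate number as a block, the 6 adult libraries alone and each adult library left out. The procedure was tested on simulated data.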

Additional observations from a re-analysis of the deposited data

Results flagged for a closer look

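These genes are listed because their KO effect in adults differed from that at another stage by a test of the difference itself (adjusted p under 0.05). All values are log2 differences, adult minus the other stage. Against E15.5 they were 2.33 for Rp1 (adjusted p = 0.014), -1.30 for Zap70 (adjusted p = 0.0029) and 2.63 for Upk1a (adjusted p = 0.047). Against P5 the value was -1.16 for Zap70 (adjusted p = 0.013).

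Against P9, the adult effect was the lower for Zap70 (-1.51), Dll4 (-1.24), Prom1 (-1.11), Notch4 (-0.89), Gstm7 (-0.59), Mecom (-0.55) and Ptgs2 (-3.37), with adjusted p from 2.4e-07 for Ptgs2 to 0.028 for Gstm7. It was the higher for Sox17 (1.33), Lrrc49 (0.73), Alox12 (1.45), Gkn3 (2.51) and Fam196a (2.29), with adjusted p from 0.001 for Lrrc49 to 0.013 for Sox17.

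Genes that did not pass in adults also differed from P9, as did 13.2% of all genes tested. Apart from Cldn5 and Slc2a1, those given here were picked by a difference that includes the P9 effect, so their difference from P9 is not a separate result. The values were -0.56 for Cldn5 (adjusted p = 0.049), -1.98 for the glucose carrier Slc2a1 (5.5e-08), -3.34 for the matrix protease inhibitor Timp3 (4.5e-12), -6.80 for Igfbp3 (7.6e-11), -2.40 for Atp10a (1.1e-10), -4.66 for Galnt15 (4.7e-10), -3.23 for Acer2 (1e-07) and -4.40 for the growth factor Ctgf (6.1e-10). They were 2.72 for the collagen gene Col18a1 (6.3e-09), 2.5 for Adamtsl2 (4.3e-09) and 1.84 for Gcnt1 (3.6e-06). Stage is confounded with the tamoxifen schedule, the time since tamoxifen and, for E15.5 and P5, the dissociation kit, and these cannot be told apart.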

How the results depend on the processing

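The 15 adult calls became 36 with the DESeq2 test, 69 with no low-count filter, 40 with the 6 adult libraries alone and 3 against a 2-fold change, and 4 to 14 with each adult library left out. Of the 15 genes themselves, 4 to 12 kept their call with a library left out, 13 with limma-trend and 14 when a mean count of 50 was required. The 7 called list members became 12 with DESeq2, 22 without the filter, 17 in the adult libraries alone and 1 to 5 with a library left out. Adult minus E15.5 went from 27 genes to 58 with DESeq2, 124 without the filter and 10 to 16 with a library left out. Adult minus P5 went from 6 to 30, 121 and 1 to 6, and adult minus the mean of the other stages from 153 to 302, 382 and 71 to 104, in the same order. Adult minus P9 stayed between 1799 and 2659. The KO level of Sox17 was 13.5% to 22.8% of wt with a library left out and 18.3% by TPM. The cause of these changes was not tested. Leaving Synpo2 out of the smooth muscle markers, chosen after seeing the data, moved the log2 ratio of their sum from -0.10 to -0.001, and leaving Nrgn out of the platelet markers moved theirs from 0.49 to 0.15.

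Replicate numbers did not pair the adult libraries: the deviations of libraries with the same number correlated at 0.07, 0.00 and 0.08, and not every library correlated best with its own number. With the replicate block 16 genes were called in adults, 11 of the 15 among them (Upk1a and Fam196a, adjusted p 0.064 each, Notch4, 0.14, and Mecom, 0.16, were not), 6 list members, 33 genes for adult minus E15.5, 3 for adult minus P5, 2406 for adult minus P9 and 162 for adult minus the mean of the others.

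Some log2 fold changes near 0, none of them called, changed sign with a library left out. Axin2 ranged from -0.070 to 0.083 (above 0 also without KO library 3, 0.02), Plvap from -0.26 to 0.605 (below 0 also at -0.15 and -0.13, without wt libraries 2 and 3), Slc2a1 from -0.163 to 0.067, Cdh5 from -0.013 to 0.049 (-0.00 without KO library 2), Pecam1 from -0.064 to 0.018 (0.02 without KO library 1), Galnt15 from -0.212 to 0.019, Acer2 from -0.171 to 0.13 and Ctgf from -0.021 to 0.338. Low counts limit Upk1a, Fam196a and Gja5.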

Other observations

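A gene of the p53 list and a chemokine receptor gene stood out by fold at low counts. Eda2r, a receptor of ectodysplasin A2 and a p53 target, averaged 0.232 CPM in wt and 1.13 CPM in KO (log2 fold change 2.22, adjusted p = 0.42). Ackr2, the decoy chemokine receptor, averaged 1.84 CPM in wt and 4.03 CPM in KO (adjusted p = 0.42). Both were singled out after their values were seen, and neither passed the threshold in the joint fit. In the edgeR fit with no filter on low counts both passed (adjusted p = 0.0059 for Eda2r and 0.00011 for Ackr2). Ackr2 also passed with the DESeq2 test (adjusted p = 0.025) and in the edgeR fit without KO library 1 (adjusted p = 0.036). The other 35 tested p53 targets held no call.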
